A study of Mus musculus with 7 samples.

Results

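The interferon response genes described here are 38 mouse genes that cells switch on when an interferon reaches their receptors. They were taken as a list of symbols and not by any threshold on these arrays. The list was chosen with earlier results of these data known. A probe set, the group of short probes that together read 1 transcript, was taken as a member when its annotation named exactly 1 of these symbols. In the table of the 5 Sertoli and TM4 arrays 57 probe sets represented 36 of the 38 genes, out of 18193 genes in all. In the table of the 2 testis arrays 30 probe sets represented 26 of the 38, out of 8251. Isg15 had a probe set of its own on the testis arrays and not on the others, and Ifi44 had none in either table. Each gene was followed through its brightest probe set.

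The arrays were single-colour Affymetrix arrays of total RNA in 7 groups of 1 array each. Whole testis was taken at 4 weeks from wild-type mice and from mice labelled ERM knockout. Primary Sertoli cells, the somatic cells that line the seminiferous tubule and nurse the germ cells, came from wild-type mice at 4 weeks, ERM knockout mice at 4 weeks and ERM knockout mice at 10 weeks. TM4, a cell line derived from mouse Sertoli cells, was taken without and with transfection of ERM. ERM is the ETS family transcription factor encoded by Etv5. Strain, number of animals pooled, culture conditions, the deleted part of the gene and the vector were not given in the sources used here. A wild-type Sertoli array at 10 weeks and a TM4 array with an empty vector were not analysed here. TM4 is 1 line, so its values are those of that line.

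Interferons act on neighbouring cells through paired receptors, which activate Janus kinases and STAT proteins. Type I interferons bring STAT2 and IRF9 into a complex that binds the interferon-stimulated response element, a repeat of GAAA spaced by a pair of bases. Interferon gamma instead acts through the gamma-activated site. The induced genes block viral RNA and particles, sense foreign nucleic acid, load peptides for T cells and attract lymphocytes. Sertoli cells are known to mount such responses and to help protect germ cells of the testis from viral infection.

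Values are scaled intensities. Each array was multiplied by 1 factor that brought the trimmed mean of its probe sets, controls and the outer 2% at either end left out, to 500, and values below a floor of 100 were set to 100 before log2 ratios were taken. With 1 array per group no test across samples was possible and no difference had a replicate check. Probe sets of the same bright gene differed in log2 ratio. Their robust standard deviation per probe set was 0.16 for the 4-week Sertoli pair, 0.18 for the knockout ages, 0.13 for TM4 and 0.18 for testis. It was 0.12, the smallest, for the 10-week knockout against wild type, the Sertoli pair without the 4-week knockout array. That spread is between probe sets of a gene on the same pair of arrays. It leaves out effects that shift a whole array, and differences between animals or cultures. All members are described by counts at the 2-fold threshold, set beside the percent of all genes past it.

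The labels had limited support. None of the 3 probe sets of Etv5 was lower on a Sertoli array labelled knockout, and the brightest read 709.9 in wild type, 910.1 on the array labelled 4-week knockout and 995 on that labelled 10-week knockout. A probe set outside the deleted part would check nothing, so directions below are between arrays as labelled. Sox9 and Wt1, transcription factors of Sertoli cells, read 5220.0 and 3802 on the wild-type Sertoli array. On the untransfected TM4 array Wt1 lay below the floor, at 97.4. Sox9 did so on its brightest probe set, at 95.1, and read 2869 and 1072 on the other 2. The Sertoli array labelled knockout at 4 weeks stood apart in its 18S ribosomal RNA control. The 5' probe set of that control read 4551 there, while wild type gave 349 and the array labelled 10-week knockout 352. Gapdh, read at its 3' over its 5' end as a sign of RNA integrity, ranged from 0.777 to 0.829 over the 3 Sertoli arrays. The part of the ribosomal signal in the results below was not tested.

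In primary Sertoli cells at 4 weeks, interferon response genes were lower on the array labelled ERM knockout than on the wild-type array. On 1 or both arrays all 36 members were at the floor or above, and 31 of them had a log2 ratio below 0 and 5 above. Of all genes compared, 51.8% were below 0. At least 2-fold lower were 9 of the 36, beside 3.18% of the 15860 genes compared, and none was at least 2-fold higher, beside 0.681%. The 9 were Mndal, Ifit2, Cxcl11, Cxcl10, Rsad2, Trim30a, Iigp1, Igtp and Isg20. The median log2 ratio of the members was -0.64, and that of all genes was -0.016. In bulk samples such as these, fewer cells of a type and less RNA per cell cannot be told apart.

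The 10-week knockout array set this pattern against a further preparation. The array labelled knockout at 4 weeks was the lowest of the 3 Sertoli arrays for 30 of 36 members (83.3%) and for 31.9% of 16106 genes. The wild-type array was lowest for 4 members, Irf9, Stat2, Xaf1 and Oasl2. The array labelled knockout at 10 weeks was lowest for 2, Oas2 and Dhx58, and highest for 20, beside 32.0% of all genes. The median intensity of the members was 2343 in wild type, 1201 for the 4-week and 2386 for the 10-week array labelled knockout. In TM4 it was 262 without and 255 with ERM.

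**Figure D1:**
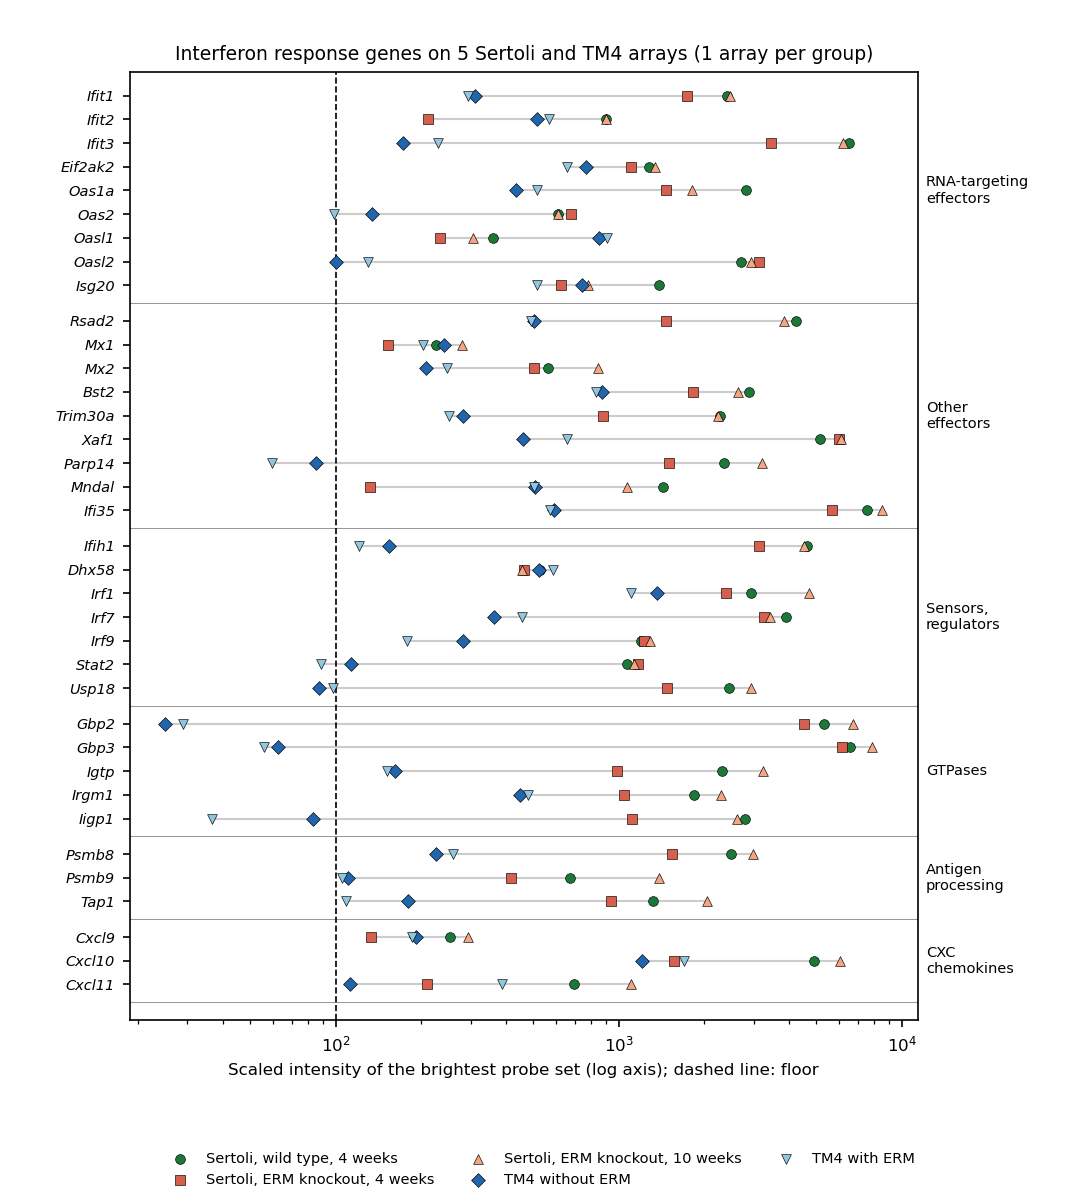
Scaled intensity (log axis) of the brightest probe set of each of 36 interferon response genes on the 3 Sertoli and 2 TM4 arrays, with 1 symbol per array, grey lines spanning the 5 arrays and the floor of 100 as a dashed line. The square of the array labelled knockout at 4 weeks is the leftmost Sertoli symbol for 30 of the 36 genes, and the TM4 symbols lie left of all Sertoli symbols for 27.

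Promoters of the members were searched for the letters of the response element, because the members are grouped by what induces them and most had ratios on the same side of 0 in Sertoli cells. RefSeq promoters of build GRCm38.p6 were at hand for 30 of the 38 members, and the 250 bases before the start were read on both strands. The letters searched were GAAA, any 2 bases and GAAA again. They occurred in 14 of these 30 genes (46.7%), against 3.46% of 27025 genes. Counted by promoter, they stood in 15 of 38 (39.5%) and in 2.98% of all 32851. The 9-letter gamma-activated pattern TTCNNNGAA stood in 8 of 38 promoters (21.1%) and in 7.02% of all. High shares of the GAAA repeat and the gamma-activated pattern were foreseeable, since members were listed as interferon-induced. They reflect nothing read on these arrays. GGAA, any 2 bases and GAAA, a pattern that joins an ETS core to an interferon regulatory core, stood in 3 of 38 (7.89%) and 2.30%. CCGGAAG, a core preferred by many ETS factors, stood in 2 of 38 (5.26%), those of Ifit2 and Rsad2, and in 6.91% of all. Matches of the GAAA repeat and of the joined ETS pattern overlapped in 2 cases, those of Igtp and Stat2. A gamma-activated match overlapped a GAAA repeat in Bst2 and a joined ETS match in Igtp.

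The stretches around the GAAA repeat are shown for the 6 members with the lowest 4-week Sertoli ratios among those that hold it, from Mndal down to Oas1a. Each is written 5′ to 3′ along the gene, and capitals mark the match, which reads TTTC, 2 bases and TTTC where it lies on the opposite strand. The stretches are chr1:173880189-173880248, chr5:92349068-92349127, chr12:26456538-26456597, chr7:104465195-104465254 and chr5:120907526-120907570 on the minus strand and chr11:58199497-58199555 on the plus strand.
Mndal: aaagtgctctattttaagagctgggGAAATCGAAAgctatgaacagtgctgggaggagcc
Cxcl10: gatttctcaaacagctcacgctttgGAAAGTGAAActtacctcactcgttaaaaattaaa
Rsad2: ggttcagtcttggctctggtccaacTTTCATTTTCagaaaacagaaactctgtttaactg
Trim30a: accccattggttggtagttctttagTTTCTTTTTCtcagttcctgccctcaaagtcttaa
Igtp: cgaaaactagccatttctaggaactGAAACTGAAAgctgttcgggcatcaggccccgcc
Oas1a: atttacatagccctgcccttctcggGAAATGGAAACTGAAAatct
The match began 36 bases before the start in Mndal and Trim30a, 34 in Igtp, 120 in Rsad2 and 213 in Cxcl10. Oas1a held 2 overlapping matches, which share a GAAA and began 20 and 14 bases before the start. Members that hold the pattern had a median 4-week Sertoli log2 ratio of -0.92 over 13 genes, of which 5 were at least 2-fold lower. Those without it had -0.50 over 15 genes, of which 2 were. Members with no promoter at hand are in neither set, among them Iigp1 and Cxcl11, which were at least 2-fold lower. Both sets spanned 0, from -3.44 to 0.12 and from -2.09 to 0.22. A match is a description of letters and not a site of binding.

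Among members that act on viral RNA, the Ifit genes make proteins that grip foreign RNA and hold back its translation. Ifit2 read 902 in wild type, 212 on the array labelled 4-week knockout and 901 on that labelled 10-week knockout. The wild-type and 10-week values were nearly equal, and the 4-week knockout value was 4.26-fold below the first. Ifit3 followed at 6515, 3444 and 6201 on the same 3 arrays, a log2 ratio of -0.92 at 4 weeks. Ifit1 stood at 2423, 1749.8 and 2473, a log2 ratio of -0.47. The 4-week knockout array was thus the lowest for all 3 genes, while the sizes differed.

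The Oas genes encode or resemble synthetases whose product switches on an RNA-degrading enzyme, and their directions were mixed. Oas1a read 2824 in wild type, 1475 on the array labelled 4-week knockout and 1819.9 on that labelled 10-week knockout. It was 1.91-fold lower at 4 weeks and, unlike Ifit2, still 1.55-fold below wild type on the 10-week array. Oas2 (612, 681 and 609.8) and Oasl2 (2703, 3142 and 2948) had log2 ratios of 0.15 and 0.22 at 4 weeks, slightly above 0. Oasl1, at 359, 233 and 307, was at -0.62. Eif2ak2, the double-stranded RNA kinase PKR that halts translation, stood at 1278, 1103 and 1348, with log2 ratios from -0.39 to -0.14 on its 3 probe sets.

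Isg20, an RNA exonuclease, read 1386 in wild type, 625 on the array labelled 4-week knockout and 777 on that labelled 10-week knockout. It was 2.22-fold lower at 4 weeks, and at -0.83 it had the lowest log2 ratio of any member between the 10-week array and wild type.

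Of the other effectors, Mndal had the lowest 4-week ratio of all 36. This nuclear DNA-binding protein of the Ifi200 family read 1438 in wild type, 133 on the array labelled 4-week knockout and 1069.9 on that labelled 10-week knockout. It was 10.8-fold lower at 4 weeks on this probe set, which can cross-hybridise with its relatives. Its other probe set went from 397 to below the floor, at least 3.97-fold, and was 299 on the 10-week array. Both probe sets therefore placed the 4-week knockout array apart from the other 2.

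Rsad2 encodes viperin, an enzyme that makes a chain-terminating nucleotide against viral polymerases. It read 4227 in wild type, 1474 on the array labelled 4-week knockout and 3848 on that labelled 10-week knockout. All 3 of its probe sets agreed in direction, with 4-week log2 ratios from -1.90 to -1.52. Trim30a, a member of the tripartite motif family, read 2282, 878 and 2247 and had log2 ratios of -1.38 and -1.32 on 2 probe sets. For both genes the wild-type and 10-week arrays lay close together and the 4-week knockout array lay more than 2-fold below.

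Smaller differences were seen for Bst2, the tetherin that holds budding virus at the cell surface, at 2879, 1835 and 2639.5 and a 4-week log2 ratio of -0.65. Parp14, an ADP-ribosyltransferase, stood at 2364, 1503 and 3199.8 and -0.65, and Ifi35 at 7522, 5655 and 8534 and -0.41. Mx1 (226, 153 and 279.7) and Mx2 (562, 502 and 843), dynamin-like GTPases that trap viral particles, had log2 ratios of -0.56 and -0.16. Xaf1, a zinc finger protein linked to cell death, stood on the other side of 0, at 5159, 5988 and 6105, with 0.22 and 0.084 on its 2 probe sets.

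Sensors and regulators had the median nearest 0 of the 6 member groups. Of 7 with a probe set none was past 2-fold at 4 weeks, and their median log2 ratio was -0.26. Stat2 and Irf9, parts of the type I complex, read 1075, 1169 and 1138 and 1198, 1233 and 1287 on the wild-type, 4-week and 10-week knockout arrays. Their log2 ratios were 0.12 and 0.042 at 4 weeks, and no array stood apart. Irf7, the factor that amplifies type I interferon production, had a log2 ratio of -0.26, at 3907, 3252 and 3439. Irf1, which carries interferon gamma signals to antigen processing genes, read 2934 in wild type, 2399 on the array labelled 4-week knockout and 4703 on that labelled 10-week knockout. Its 4-week ratio was -0.29, and the 10-week array was the highest at 1.60-fold over wild type. Usp18, which strips ISG15 from proteins and damps the receptor, stood at 2453, 1489 and 2940.1 and -0.72. Among RNA sensors, Ifih1 (MDA5) stood at 4615, 3145 and 4514 and -0.55. The 3 probe sets of Dhx58 (LGP2) had 4-week log2 ratios from -1.19 to -0.19, the last on the brightest. For Dhx58 the size of the difference therefore rests on which probe set is read.

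The GTPases guard against bacteria and parasites inside cells, and all 5 were lowest on the array labelled knockout at 4 weeks. Igtp (Irgm3) read 2322 in wild type, 989 on the array labelled 4-week knockout and 3247 on that labelled 10-week knockout, which was 2.35-fold lower at 4 weeks. Iigp1 (Irga6) stood at 2800.2, 1117 and 2623, 2.51-fold lower, with -1.10 on its other probe set. Irgm1 followed at 1843, 1049 and 2299.9 and a log2 ratio of -0.81. The guanylate-binding genes Gbp2 (5315, 4528 and 6730.0) and Gbp3 (6593, 6144 and 7852) differed less, at -0.23 and -0.10. The immunity-related GTPases and the guanylate-binding genes thus shared a direction and not a size.

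On their brightest probe sets, antigen processing genes were all lowest on the 4-week and highest on the 10-week knockout array. Psmb9, a catalytic subunit of the immunoproteasome, read 675 in wild type, 415 on the array labelled 4-week knockout and 1394 on that labelled 10-week knockout. At 4 weeks it was 1.62-fold lower, and on the 10-week array it was 2.07-fold above wild type. Psmb8, another such subunit, stood at 2495, 1547 and 2992. Its other probe set read 331, 203 and 284 on the same arrays, highest in wild type. Tap1, which carries peptides into the endoplasmic reticulum, stood at 1327, 938 and 2059.6, with 1.55-fold more on the 10-week array than in wild type. None of the 3 was past 2-fold in the 4-week comparison.

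The CXCR3 chemokines, which draw activated T and natural killer cells, had the lowest median of the 6 member groups at 4 weeks (-1.64). Cxcl10 read 4892 in wild type, 1573 on the array labelled 4-week knockout and 6079 on that labelled 10-week knockout. Cxcl11 stood at 699, 211 and 1108, and Cxcl9 at 255, 133 and 294. The 4-week differences were 3.11-fold, 3.32-fold and 1.92-fold in that order, all lower. On the second Cxcl11 probe set the 4-week knockout array lay below the floor, a difference of at least 2.12-fold. The other Cxcl9 probe set lay below the floor on all 3 Sertoli arrays and read 170 and 194 in TM4 without and with ERM. On the brightest probe set of all 3 genes the array labelled knockout at 10 weeks was the highest of the Sertoli arrays.

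More than 1 probe set per gene could be read for 13 members in the 4-week comparison, and 12 of these 13 had all probe sets in the same direction. Stat2 was the exception, at 0.12 and -0.11. For 5 members all probe sets were at least 2-fold lower, namely Mndal, Rsad2, Trim30a, Iigp1 and Cxcl11. Near-identical relatives in the Oas1, Ifi200, Trim30 and immunity-related GTPase families can share probes, so values of single genes in them are uncertain.

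Several members lie next to each other in the genome, within 10 protein-coding genes in the RefSeq order, and neighbours were not always alike. Of 35 members found in that order, 14 formed 6 such groups. The Ifit group spread from -2.09 for Ifit2 to -0.47 for Ifit1 in the 4-week Sertoli comparison. Oas1a (-0.94) and its neighbour Oas2 (0.15) lay on opposite sides of 0, and so did Oasl1 (-0.62) and Oasl2 (0.22). Psmb9, Tap1 and Psmb8 lay close together at -0.70, -0.50 and -0.69, as did Gbp2 and Gbp3 at -0.23 and -0.10. Cxcl9 and Cxcl10 were at -0.94 and -1.64.

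**Figure D2:**
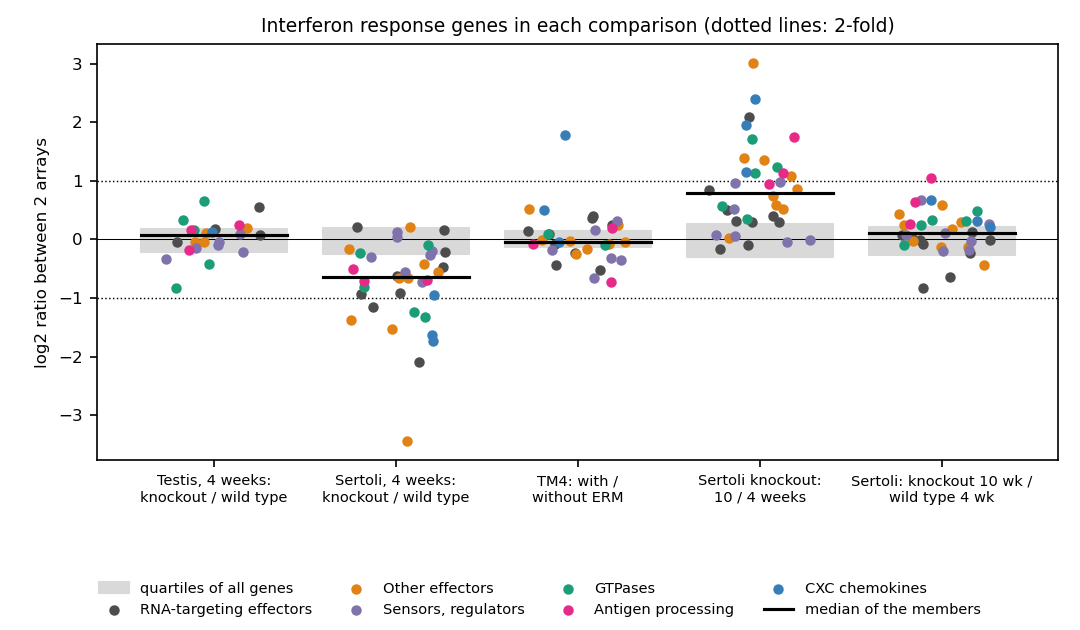
The log2 ratio between 2 arrays is plotted for each interferon response gene that reached the floor, in 5 comparisons, with points coloured by member group, black bars at the members' median, grey boxes at the quartiles of all genes and dotted lines at 2-fold. The median is -0.64 for Sertoli cells at 4 weeks, 0.80 between the knockout ages and 0.11, -0.04 and 0.08 in the other 3; the comparisons of Sertoli cells share arrays.

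Between the Sertoli arrays labelled knockout, the 10-week array was higher for 32 of 36 members and lower for 4. It was higher for 46.8% of all genes. At least 2-fold higher were 13, beside 4.19% of 15849 genes, and none was at least 2-fold lower, beside 3.51%. The median log2 ratio was 0.80, and that of all genes was -0.03. The 13 held 8 of the 9 genes named for the 4-week comparison, with Isg20 the one left out at 0.32. The others were Psmb9 (1394 against 415, 3.36-fold), Cxcl9, Tap1, Irgm1 and Parp14. All 3 chemokines were among the 13, with a median of 1.95, and 3 of 5 GTPases (1.13) and 2 of 3 antigen processing genes (1.13). None of the 7 sensors and regulators was, with a median of 0.08. Of 9 genes that act on viral RNA only Ifit2 was (0.32), and of 9 other effectors 4 were (0.87). Both comparisons use the array labelled knockout at 4 weeks, so a low reading there enters each, and the second gives no separate support to the first.

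Set against wild type at 4 weeks, the 10-week knockout array had 1 of 36 members at least 2-fold higher, Psmb9, beside 1.62% of 15911 genes. None was at least 2-fold lower, beside 4.22%. The median was 0.11, with -0.029 for all genes, and 22 members lay above 0 and 14 below. Of all genes, 46.6% lay above 0. Age and genotype both differ in this pair and cannot be told apart. The highest log2 ratios were those of Psmb9 (1.05), Irf1 (0.68), Cxcl11 (0.67), Tap1 (0.63) and Mx2 (0.59). The lowest were Isg20 (-0.83), Oas1a (-0.63) and Mndal (-0.43).

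Other genes of the pathway were taken from lists by role, also chosen with earlier results of these data known. Of 31 further interferon-induced genes 28 had a 4-week Sertoli log2 ratio below 0, beside 51.8% of all genes, with a median of -0.48. At least 2-fold lower were 7, beside 3.18%, and no gene of the list was 2-fold higher, beside 0.681%. Lgals9, a galectin, read 1593 in wild type, 489 on the array labelled 4-week knockout and 1615 on that labelled 10-week knockout. Ifi204, a relative of Mndal, stood at 1232, 382 and 803, and Ifi44l at 1012 on the 4-week knockout array against 2969 in wild type. On the 10-week array 22 of these 31 were above wild type, beside 46.6% of all genes, with a median of 0.16. In its medians this list had the same order of arrays as the members.

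Genes that act before the response, and those of antigen presentation, had 4-week medians nearer 0. Of 8 interferon ligands with a probe set none read above 368 on any Sertoli array, and none of the 5 at the floor at 4 weeks was past 2-fold. Ifnb1, the first type I interferon made on infection, read 128, 138 and 124, little above the floor. With a median of 119 in wild type, the ligand readings are too near the floor to rank the arrays. The 7 receptor genes had a 4-week median of 0.10, with Ifnar1 at 1108, 1209.5 and 1256. Ifngr1, the ligand-binding chain for interferon gamma, stood at 1747, 1484 and 2887, highest on the 10-week array. Of 12 signalling genes none was past 2-fold (median -0.022), with Stat3 at 0.45 and the kinase gene Jak2 at -0.36. Among 14 sensing genes 1 was at least 2-fold lower, beside 3.18% of all genes, and 9 were below 0, beside 51.8%. The 1 gene was Zbp1, a sensor of Z-form nucleic acid (1059 against 2169). These 14 had a median of -0.27, and the adaptor gene Mavs was the highest of them at 0.68. The 14 genes of MHC and antigen presentation had a median of 0.078 with none past 2-fold. B2m, the light chain of class I molecules, stood at 11424, 9020.4 and 12599. Tap2, the partner of Tap1 in peptide transport, stood at 646, 508 and 1303, at least 2-fold higher on the 10-week array than on either of the others. Medians of the ligand, signalling and MHC lists took both signs over the alternative settings.

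Markers of other cells also differed between these arrays. Of 20 macrophage genes 17 reached the floor at 4 weeks, with a median of -1.02. On the array labelled knockout 9 were at least 2-fold lower, beside 3.18% of all genes. The 20 genes summed to 16437 in wild type, 6698 on the 4-week and 10730.0 on the 10-week knockout array. In TM4 the sum was 7665 without and 7653 with ERM. Ctss, a lysosomal protease of macrophages, read 3801 in wild type, 468 on the array labelled 4-week knockout and 1829.7 on that labelled 10-week knockout. Cd53, a leukocyte tetraspanin, stood at 1006, 121 and 289. Itgam and Cd163 lay below the floor on all 3 arrays. Ptprc (CD45) did so on its brightest probe set, but its other probe set read 196 in wild type, 41.2 on the 4-week and 132 on the 10-week knockout array. These 3 genes were picked out after their values were seen. The array labelled 4-week knockout was the lowest of the 3 Sertoli arrays for 13 of 17 macrophage genes (76.5%). That share was 83.3% for the members and 31.9% for all genes. Between the knockout ages 13 of 16 macrophage genes were higher on the 10-week array, beside 46.8% of all genes, with a median log2 ratio of 0.41. Set against wild type, 15 of 17 macrophage genes were lower on the 10-week array, beside 53.4% of all genes. At least 2-fold lower were 5 of them, beside 4.22%. Of the members, 22 of 36 were above wild type there. The part of macrophage RNA in the 4-week result was not tested.

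Other marker lists are given for the same arrays. Sertoli cell genes had a 4-week median of 0.24 over 13, and summed to 42095, 50173 and 45529 on the wild-type, 4-week and 10-week knockout arrays. Germ cell genes summed to 24269.9, 23280.3 and 5104, least on the 10-week array. Leydig cell genes summed to 2159, 3319 and 5541 over 4 genes. Lymphocyte genes (median -0.16 over 13), dendritic cell genes (0.066 over 6), endothelial genes (-0.075 over 5) and fibroblast and peritubular genes (-0.36 over 10) made up the rest at 4 weeks. The part of these cells in the member values was not tested.

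**Figure D3:**
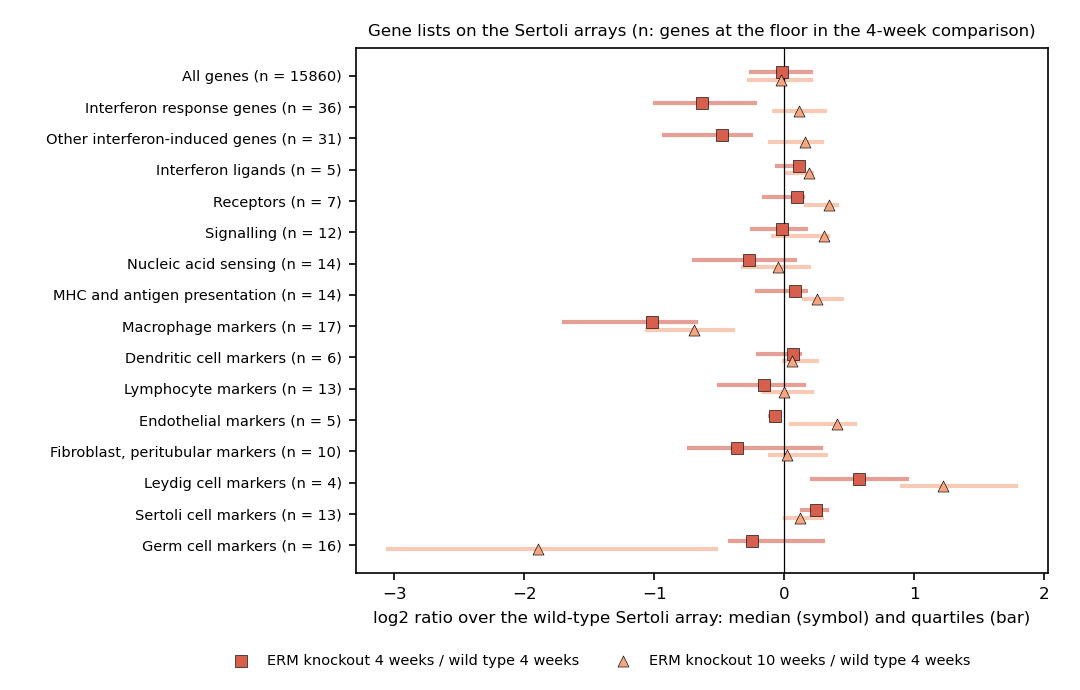
Median (symbol) and quartiles (bar) of the log2 ratio over the wild-type Sertoli array for gene lists, with squares for the array labelled knockout at 4 weeks and triangles for that at 10 weeks. Interferon response genes go from -0.64 to 0.11 between the 2 arrays, while macrophage markers are below 0 on both, at -1.02 and -0.69.

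Interferon response genes read lower in TM4 cells than in primary Sertoli cells. On the brightest probe set of each gene, for 27 of 36 members (75.0%) all 3 Sertoli arrays were above both TM4 arrays, against 32.0% of 17257 genes. On those probe sets Oasl1 alone lay the other way, at 850.3 and 910.4 without and with ERM. The remaining 8, Ifit2, Isg20, Mx1, Mndal, Dhx58, Cxcl9, Cxcl10 and Cxcl11, had a Sertoli array within or below the TM4 range. Xaf1, one of the 27, went the other way on its other probe set. That probe set read 1360 and 1760 in TM4 without and with ERM. On the wild-type, 4-week and 10-week knockout Sertoli arrays it read 985, 1043 and 1358. Gbp2, at 5315 in wild-type Sertoli cells, was below the floor on both TM4 arrays (25.1 and 28.9) on its brightest probe set, while its other probe set read 158 and 139. Iigp1 was likewise below it on the brightest probe set and at 275 and 322 on the other. Gbp3, Parp14 and Usp18 were below the floor in TM4 on every probe set they have. Ifit2 lay between the Sertoli arrays, with 515 and 567 in TM4, above the array labelled 4-week knockout (212) and below the other Sertoli arrays.

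Of 31 members at the floor on a TM4 array, 1 was at least 2-fold higher with ERM, beside 0.303% of 16158 genes, and none at least 2-fold lower, beside 0.421%. The median log2 ratio was -0.04, with 13 above 0 and 18 below, and the median took both signs over the alternative settings. The 1 gene was Cxcl11, at 112 without and 386 with ERM, a 3.44-fold difference on a probe set near the floor in the former. Its other probe set lay below the floor on both arrays. Cxcl10 was next among the chemokines, at 1208 and 1704 (0.50), and Cxcl9 was at -0.04. Xaf1 (0.51) and Ifit3 (0.41) were higher and Tap1 (-0.73), Irf9 (-0.65) and Isg20 (-0.52) lower, all within 2-fold. Of 9 members with several readable probe sets 3 had them in the same direction. The 29 further interferon-induced genes had a median of 0.065 with none past 2-fold. Irf8, a regulator of myeloid cells, stood at 367 and 648.

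In whole testis at 4 weeks no interferon response gene was called 2-fold different between wild type and the array labelled ERM knockout, and the floor leaves the ratio of dim genes as a bound. Not represented by a probe set of their own were Oas1a, Oas2, Oasl1, Oasl2, Bst2, Xaf1, Parp14, Mndal, Ifi44, Dhx58, Stat2 and Cxcl11. Of the 26 members 23 reached the floor on at least 1 array. None was at least 2-fold higher, beside 0.532% of 7515 genes, and none at least 2-fold lower, beside 0.852%. The median was 0.08, with 12 members above 0 and 11 below, and it took both signs over the alternative settings. The members' median intensity was 173 for wild type and 155 for the array labelled knockout. Testis and Sertoli cells were measured on different array designs, so levels are not compared between them.

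Among the brighter members, Mx2 read 1689 in wild type and 1930.0 on the testis array labelled knockout. Irf1 stood at 2128 and 1683, and Usp18 at 492 and 424. Isg15, the ubiquitin-like modifier, stood at 415 and 375. Of these 4 genes Irf1 differed most, with a log2 ratio of -0.34. Iigp1 (714 and 1119.7, 1.57-fold) and Isg20 (773 and 1139, 1.47-fold) were higher on the array labelled knockout, the opposite of their direction in Sertoli cells at 4 weeks. Igtp went from 177 to below the floor, at least 1.77-fold lower, which does not bound it under 2-fold. Of the Sertoli genes past 2-fold, Ifit2, Cxcl10 and Trim30a stayed under the floor in both testis samples, and Rsad2 barely reached it in wild type, at 103. The testis arrays therefore cannot show whether those genes differ there. Macrophage genes had a testis median of 0.12 over 18, and 16 further interferon-induced genes one of 0.031. The 14 genes of the MHC list had a median of 0.14, with 8 above 0 and 6 below, from -0.35 for Psmb10 to 0.87 for Cd74.

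**Figure D4:**
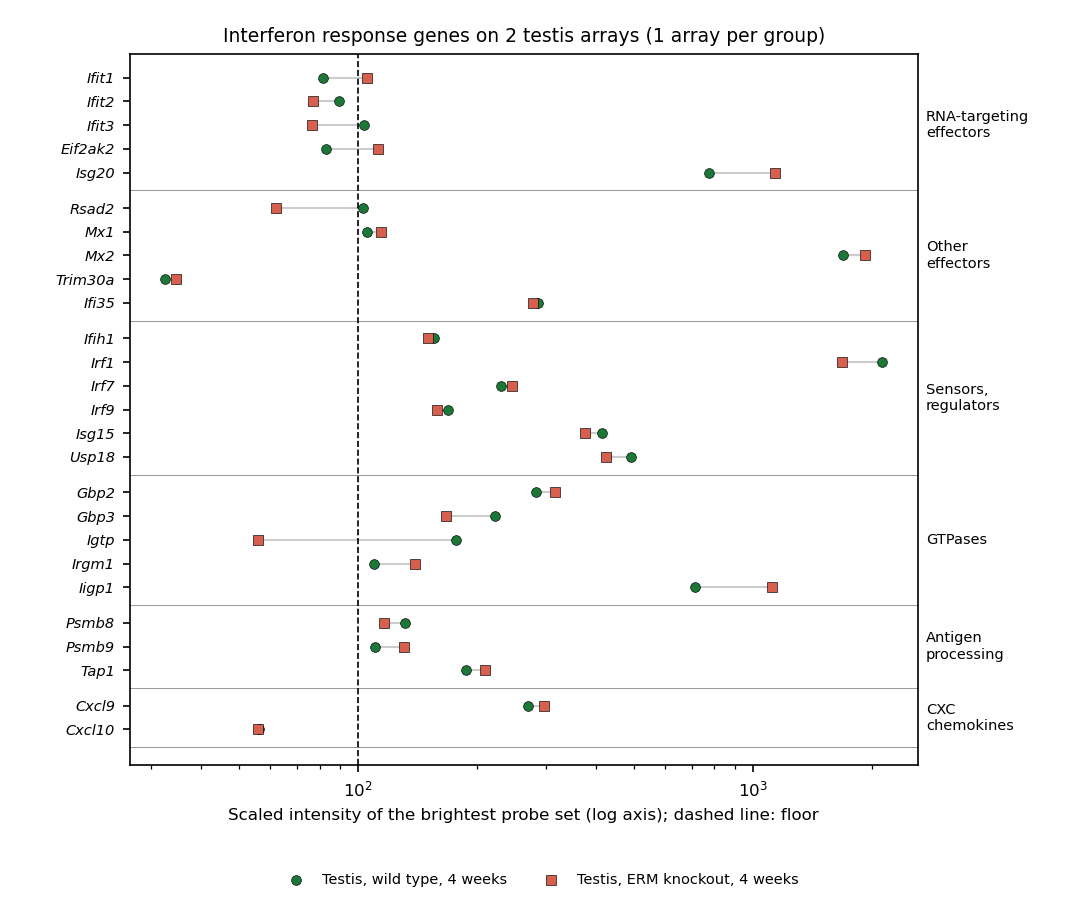
Scaled intensity (log axis) of the brightest probe set of each of 26 interferon response genes on the 2 testis arrays, with circles for wild type, squares for the array labelled ERM knockout and the floor of 100 as a dashed line. No gene differs 2-fold with both arrays at or above the floor; Ifit2, Cxcl10 and Trim30a lie left of the dashed line on both arrays.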

How the data were processed

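The authors deposited linear intensity values, 1 per probe set, none below 1. For their software, scaling and genome build the sources used here name nothing. Arrays in the Sertoli and TM4 table had no common scale, with deposited trimmed means of 183 to 299. Scaling each array to a trimmed mean of 500 assumes that most genes are alike between cells. Setting values below 100 to the floor shrinks the ratios of dim genes.

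Left out in the Sertoli and TM4 table were 932 probe sets annotated to several genes, 9160 to none and 64 controls, and from testis 396, 1193 and 66. Identifiers of all 57 and 30 member probe sets matched the RefSeq gene table of assembly GRCm38.p6 with the same symbol. That table served for names and gene order only. A gene with several probe sets was read from the one with the highest mean over its table's arrays. Any member could be named. Of each other list, up to 4 genes by size of ratio were eligible for each comparison.

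The members and lists were chosen with earlier results of these data known. The ratio steps were tested on simulated arrays. Changes were set only in bright probe sets there, so recovery of changes near the floor was not tested. Software was matplotlib 3.10.9, numpy 2.4.6 and pandas 2.3.3 under Python 3.11.15.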

Additional observations from a re-analysis of the deposited data

Results flagged for a closer look

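The 18S ribosomal RNA control probe sets, which enter no comparison of genes, read high on the Sertoli array labelled ERM knockout at 4 weeks. The 5' probe set read 4551, the middle probe set 3037 and the 3' probe set 1966. In wild type they read 349, 297 and 666. The array labelled 10-week knockout gave 352, 347 and 587. This is also the array with the lowest interferon response genes, and the part of this signal in their values was not tested.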

How the results depend on the processing

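Log2 ratios and 2-fold counts of each comparison were recomputed on the deposited scale, with ratios centred on the median gene and after quantile normalization. They were also recomputed with the floor at 0.1 and at 0.4 of the trimmed mean, with probe sets averaged and without cross-hybridising probe sets. Over these 7 the 4-week Sertoli median of the members ranged from -0.69 to -0.59 with 9 to 11 genes at least 2-fold lower. Between the knockout ages 12 to 15 were at least 2-fold higher. The median there was 0.58 with the floor at 0.4, the lowest of the 7. With that floor the TM4 median was 0.099 and 0 members were at least 2-fold higher, since Cxcl11 is dim without ERM. With the floor at 0.1, 1 testis member was at least 2-fold lower. The testis and TM4 medians took both signs over the alternatives. A stricter rule, chosen after seeing the data, asked for 2 probe sets or more past 2-fold on the same side. It left 5 members lower at 4 weeks, 5 higher between the knockout ages, 0 higher in TM4 and 0 higher at 10 weeks against wild type. It can count only genes with several readable probe sets. Of 1109 values of single members under these 7 settings, 43 moved by more than the probe set spread and none that was past 2-fold changed sign. Counts over all genes moved by more than 1.5 times with the floor. In TM4 they went from 49 higher and 68 lower to 134 and 193 at 0.1 and to 24 and 27 at 0.4, and to 44 lower as deposited. In testis they went from 40 higher and 64 lower to 61 higher at 0.1, and to 22 and 35 at 0.4. Intensities, marker sums, the order of the Sertoli arrays and their order against TM4 were read with the main scaling and floor only. No paired analysis was possible because each group is 1 array. Low signal limits the testis and TM4 values, where 3 of 26 and 5 of 36 members lay below the floor on both arrays in the probe set used.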
